A study of Mus musculus with 6 samples.

Results

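The extracellular matrix of a tumor is cut by secreted and membrane-bound metalloproteinases, and the genes of the matrix metalloproteinases (MMPs), their tissue inhibitors (TIMPs), the ADAMTS proteases and the ADAMTS-like proteins were followed here in melanomas grown at 2 body sites. Members were taken by gene symbol: Mmp followed by a number and, where present, the letter a or b, Timp1 to Timp4, and Adamts or Adamtsl followed by a number. This gave 51 of the 45777 genes listed, namely 23 MMPs, 4 TIMPs, 19 ADAMTS genes and 5 ADAMTS-like genes. Of them, 41 had 10 or more reads in at least 3 tumors, and 4 (Mmp7, Mmp20, Mmp21 and Adamts18) had no read in any tumor.

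B16F10, a cell line of mouse melanoma, was grafted into the hind footpad or the flank skin, and RNA from 3 footpad tumors and 3 flank tumors was sequenced, 1 library per tumor. The hosts were, by the labels, Foxn1-/- mice aged 8 weeks, a genotype without a thymus and so without mature T cells, in which macrophages, neutrophils, fibroblasts and vessels remain. The study's methods describe grafts of B16F10 also into C57BL/6J mice, and they do not name the host of the sequenced tumors. The methods describe grafting several sites of a mouse at once, and the labels do not say which footpad and flank tumors shared a mouse, so the tumors were compared as separate samples and the p-values measure the spread between them. The labels say that tumors were removed and the methods that tumor cells were isolated, without naming how. The comparison of footpad with flank addressed how transcript levels differ by site in tumors grown from the same melanoma line, host cells included. The sole of the foot is the surface that bears body weight. Between 46529649 and 66364366 reads per tumor were counted on genes, so that 3 reads, taken as the limit of detection, corresponded to 0.0438 to 0.0673 CPM. CPM gives the reads of a gene as a proportion of all reads, with library sizes scaled by the TMM method of edgeR. Where 3 values are given for a site, they are those of replicates 1, 2 and 3 in turn. Melanocyte markers were high in every tumor, with a summed level of 9876 to 18477 CPM in footpad tumors and 14648 to 25363 CPM in flank tumors, and 0 of the 7 passed the test for a difference. Of these 7, 0 had a log2 fold change of footpad over flank above 0, and the median was -0.346, so equal melanoma content is not shown.

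MMPs are zinc-dependent proteases made as inactive precursors. They are usually grouped by substrate into collagenases, which cut fibrillar collagen, gelatinases, which cut denatured collagen and basement membrane, and stromelysins, which cut many other matrix proteins, while membrane-type MMPs act at the cell surface. TIMPs bind the active site of MMPs and, in the case of Timp3, of several ADAMTS proteases. ADAMTS proteases carry thrombospondin repeats and include enzymes that process procollagen and enzymes that cut proteoglycans, whereas ADAMTS-like proteins have the repeats but no protease domain.

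The 4 families differed in which member supplied most of the transcripts. On the FPKM scale (the authors' values, scaled by transcript length and library size and so comparable between genes), the most abundant MMP was Mmp14, the membrane-type enzyme that activates pro-Mmp2 at the cell surface, with a mean of 53.6 FPKM in footpad tumors and 45.1 in flank tumors. Mmp14 made up 62.4% of the summed MMP level over the 6 tumors. Adamts1, a versican- and aggrecan-cutting enzyme, held a similar place among ADAMTS genes, with 61.9 FPKM in footpad and 59.3 in flank tumors and 71.6% of the family's sum. Among the inhibitors, Timp2 had 26.3 FPKM in footpad and 24.6 FPKM in flank tumors, Timp1 had 37.2 and 13.0 FPKM, and Timp3 had 7.48 and 5.89 FPKM. The 3 most abundant MMPs, ADAMTS genes and ADAMTS-like genes were Mmp14, Mmp3 and Mmp2, Adamts1, Adamts4 and Adamts20, and Adamtsl5, Adamtsl4 and Adamtsl2, respectively, by the mean over the 6 tumors. The order differed between sites: in the footpad Adamts14 (mean 4.05 FPKM) and Adamts2 (3.22 FPKM) were among the genes above Adamts20 (2.32 FPKM).

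Summed FPKM of the MMPs was 101, 68.4 and 129 in the footpad, compared with 57.6, 71.1 and 47.5 in the flank. Footpad replicate 2 lay just below flank replicate 2, so the groups overlapped. Without Mmp14 the MMP sum was 52.8, 13.6 and 70.8 in the footpad and 7.80, 27.2 and 6.04 in the flank, a wide spread on both sides. The TIMP sum did not overlap, with 70.8, 62.3 and 79.9 FPKM in footpad tumors against 53.2, 42.2 and 35.8 in flank tumors. The ADAMTS-like sum did not overlap either, at 8.38, 9.17 and 8.26 against 6.19, 4.94 and 3.41 FPKM. The ADAMTS sum, which mostly follows Adamts1, was 99.2, 71.0 and 105 FPKM against 69.0, 95.4 and 67.9. The ratio of the MMP sum to the TIMP sum was 1.38 ± 0.260 (SD, n = 3) in the footpad and 1.36 ± 0.303 (SD, n = 3) in the flank, a difference smaller than either SD.

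**Figure D1:**
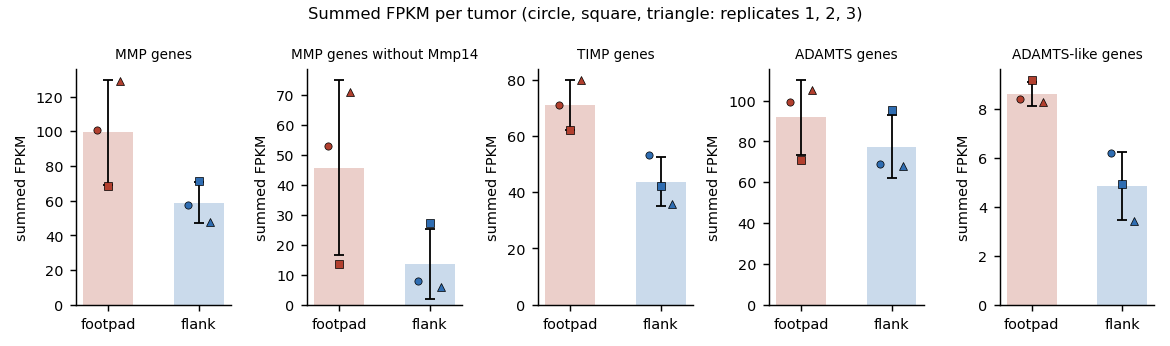
Summed FPKM of each family per tumor (vertical axes, linear, from 0) in footpad and flank tumors. Bars are means of 3 tumors, error bars are the SD, and symbols mark replicates 1 (circle), 2 (square) and 3 (triangle). The TIMP and ADAMTS-like sums of all footpad tumors lie above those of all flank tumors, whereas footpad replicate 2 lies among the flank tumors for the MMP sums and the ADAMTS sum.

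Of the 51 members, 8 were higher in footpad tumors and 0 were lower. In the quasi-likelihood test of edgeR, 42 members could be tested, and with p-values adjusted by Benjamini-Hochberg over all 17210 genes kept by its filter on low counts, Adamts2, Adamts14, Adamts16, Adamtsl3, Adamtsl4, Mmp19, Mmp23 and Timp1 differed by a fold of 2 or more at an adjusted p under 0.05. These 8 are 19.0% of the members tested, where 2.89% of all genes tested were higher by the same rule. No member was called lower, where 0.872% of all genes were, and at an unadjusted p under 0.05 with a fold of 2 or more 19 members were higher and 0 lower in edgeR, where 9.16% of all genes were higher and 2.82% lower. DESeq2 also called 0 lower. A fold of 2 or more toward the footpad was estimated for 21 members, 50.0% of those tested against 13.0% of all genes, and 13 of these 21 did not pass the test.

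The 3 footpad values lay above all 3 flank values for 17 members, 40.5% of those tested, where 17.5% of all genes did so. They lay below for 1 member, Mmp17, where 14.9% of all genes did so. The median log2 fold change (footpad over flank) of tested members was 1.16, against -0.004 over all genes. By family it was 1.65 for the 17 MMPs tested, 0.20 for the 4 TIMPs, 1.28 for the 16 ADAMTS genes and 0.96 for the 5 ADAMTS-like genes. The edgeR filter asks for enough reads in 3 tumors, and 10 members passed it through the footpad tumors alone (Mmp8, Mmp10, Mmp16, Mmp25, Mmp28, Adamts3, Adamts8, Adamts15, Adamts16 and Adamtsl3), while Timp4 passed through the flank tumors alone. Entry in this way favors higher footpad values. The 10 are included in the medians and in the shares called, of fold 2 or more, and without overlap, so the filter may have set part of these excesses. All genes tested passed the same filter, and its part was not tested. Of the 8 genes called, Adamts16 and Adamtsl3 were among these 10, and the other 6 were among the 30 members that passed in both groups.

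How many members passed the test depended on single tumors. Without footpad replicate 1 or footpad replicate 3 no member was called (0 each, with 31 and 0 genes of the whole table), without flank replicate 1 there were 2 (Adamts14 and Adamtsl3) and without flank replicate 3 there was 1 (Adamtsl3), with 308 and 46 genes of the whole table, and without footpad replicate 2 or flank replicate 2 there were 10 each, with 836 and 530 genes of the whole table, and 6 of each 10 were among the 8. DESeq2 without an added filter on low counts called 17 members higher, the 8 and Mmp2, Mmp9, Mmp10, Mmp25, Adamts3, Adamts6, Adamts7, Adamts8 and Adamts19, where 5.96% of all genes were called higher by that tool.

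**Figure D2:**
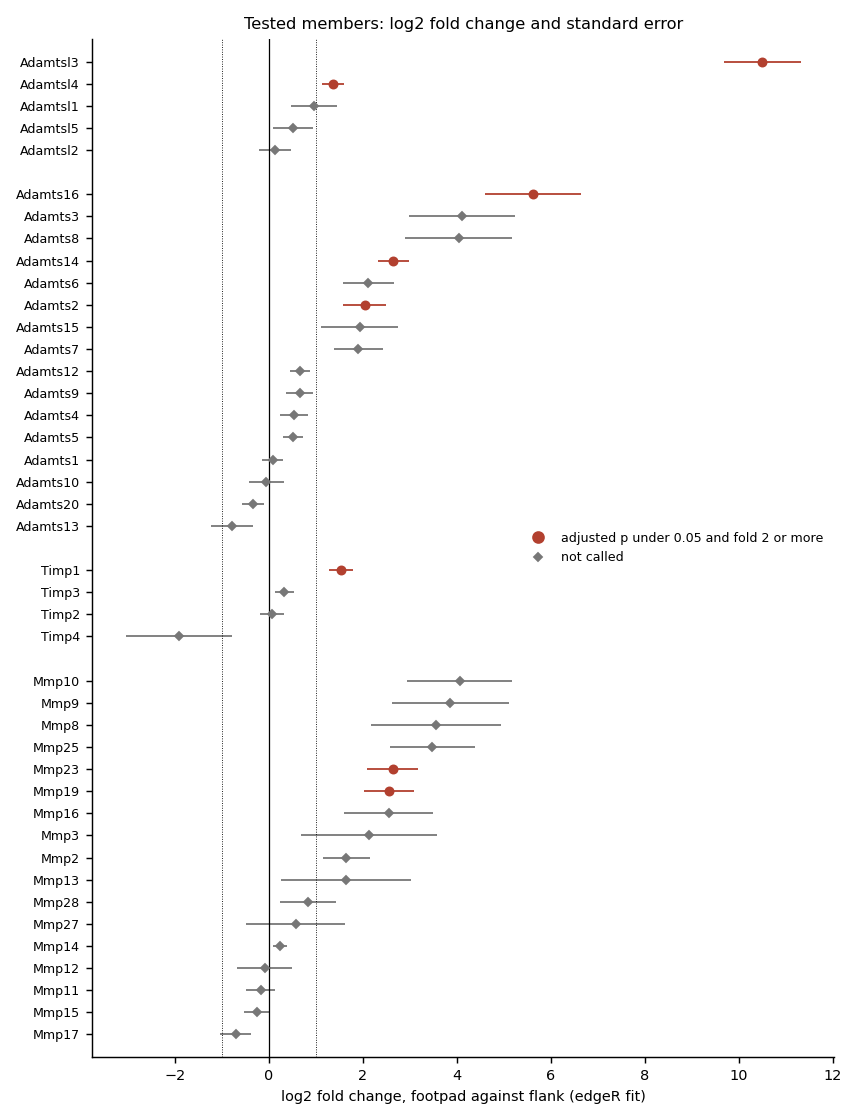
Log2 fold change of footpad over flank tumors (horizontal axis, edgeR fit) for the 42 tested members, grouped by family, with bars of 1 standard error. Red circles mark the 8 members called, gray diamonds the others, and dotted lines a fold of 2 in either direction. 13 of the 16 ADAMTS genes and 13 of the 17 MMPs lie to the right of 0, and Mmp14, Timp2, Timp3 and Adamts1 lie close to it. The fitted value of Adamtsl3 is set against 0 flank reads and is not a measured size.

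Of the 3 procollagen N-proteinases, which remove the amino-terminal propeptide of fibrillar procollagens, 3 lay above the flank without overlap, where 17.5% of all genes did. Of these 3, 2 were called higher, where 2.89% of all genes were, and Adamts3 passed the filter through the footpad tumors alone. Adamts14 (chr10:61197112-61273419, GRCm38) was measured at 28.6, 22.4 and 20.1 CPM in the footpad, compared with 2.55, 5.58 and 3.20 CPM in the flank. All footpad tumors were above all flank tumors, with a log2 fold change of 2.65 ± 0.32 (SE) and an edgeR adjusted p of 0.0141. Adamts2 (chr11:50602085-50807573), the enzyme that is mutated in dermatosparaxis, was at 23.5, 28.0 and 27.1 CPM against 3.47, 11.6 and 4.04 CPM. The footpad values were close together and flank replicate 2 was the highest of its group, with a log2 fold change of 2.04 ± 0.45 (SE) and an edgeR adjusted p of 0.0480. Adamts3, which acts on type II procollagen and on pro-VEGF-C, was scarce, at 0.539, 0.525 and 0.204 CPM against 0, 0.0684 and 0 CPM, and its log2 fold change of 4.11 ± 1.12 (SE) had an edgeR adjusted p of 0.0760.

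Among the other ADAMTS genes with less well defined substrates, Adamts16 (chr13:70727798-70841845) was at 0.763, 0.569 and 1.43 CPM in the footpad and at 0, 0 and 0.0479 CPM in the flank. It was thus close to the limit of detection in every flank tumor, with 143 reads in the footpad group and 3 in the flank group, a ratio of 52.6 after scaling for library size, with an exact 95% interval of 17.7 to 258 that covers counting error only. The edgeR adjusted p was 0.0307. Adamts6 was at 5.23, 3.63 and 6.66 CPM against 0.483, 2.104 and 0.975 CPM and its relative Adamts10, linked to fibrillin microfibrils, at 10.4, 3.94 and 6.96 CPM against 8.47, 7.90 and 5.64 CPM. Adamts6 separated the sites with a log2 fold change of 2.12 ± 0.54 (SE) and an edgeR adjusted p of 0.0661, while the values of Adamts10 overlapped. The edgeR adjusted p of Adamts6 was 0.0389 without flank replicate 2 and 0.195 without footpad replicate 3. Adamts19 was not tested because of low counts. It had 41 reads in the footpad group and 0 in the flank group, at least 4.74-fold higher when the flank is set to 3 reads per library.

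Of the 5 ADAMTS-like genes, 2 were called higher, where 2.89% of all genes were. Adamtsl3 (chr7:82335399-82614450) had the lowest adjusted p of all members. It was at 2.83, 2.17 and 4.55 CPM in the footpad and had no read in any flank tumor, 498 reads against 0, which is at least 63.3-fold higher with the flank set to 3 reads per library (edgeR adjusted p = 0.0105). Adamtsl4 (chr3:95676201-95687927), a protein of fibrillin microfibrils known from displaced lenses, was at 15.1, 15.3 and 11.2 CPM against 4.24, 5.78 and 6.18 CPM. Its groups were separated by a gap wider than the range within either, with a log2 fold change of 1.36 ± 0.23 (SE) and an edgeR adjusted p of 0.0270. The most abundant ADAMTS-like gene per length, Adamtsl5, was steady in the footpad at 15.1, 15.1 and 14.5 CPM and spread from 4.65 to 18.0 CPM in the flank, so the sites overlapped. Adamtsl2, which binds a latent TGF-beta complex, overlapped as well, at 2.04, 3.66 and 2.98 CPM against 2.04, 3.32 and 2.59 CPM.

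The 2 MMPs that passed the test belong to none of the classical substrate groups. Mmp19 (chr10:128790910-128800827), which cuts basement membrane proteins, was at 22.9, 9.36 and 19.4 CPM in the footpad and 1.91, 5.18 and 1.68 CPM in the flank. Footpad replicate 2 was the lowest of its group and flank replicate 2 the highest of its own, and the groups did not overlap, with a log2 fold change of 2.56 ± 0.53 (SE) and an edgeR adjusted p of 0.0403. Of its exonic bases, 22.3% (789) are shared with Tmem198b on the opposite strand, and whether the counting used strand is not stated. Reads on Tmem198b numbered 334, 526 and 448 in the footpad and 465, 391 and 455 in the flank, so they did not follow Mmp19. Mmp23 (chr4:155650655-155654539), an MMP anchored in the membrane by its amino terminus, was at 1.71, 2.33 and 3.08 CPM against 0.190, 0.667 and 0.288 CPM. All footpad values exceeded the highest flank value, with a log2 fold change of 2.63 ± 0.54 (SE) and an edgeR adjusted p of 0.0401.

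Timp1, the secreted inhibitor that acts on most soluble MMPs, was the 1 TIMP of 4 that passed the test. Timp1 (chrX:20870166-20874737) was at 43.4, 24.8 and 44.0 CPM in footpad tumors and at 13.3, 14.3 and 11.1 CPM in flank tumors. Replicate 2 was again the lowest of the footpad group and still above every flank tumor, with a log2 fold change of 1.54 ± 0.25 (SE) and an edgeR adjusted p of 0.0234. Timp2, which inhibits MMPs and also takes part in the activation of pro-Mmp2, was at 109, 107 and 105 CPM against 148, 76.8 and 81.2 CPM. Timp3, which binds to the matrix, was at 34.8, 40.7 and 42.1 CPM against 40.5, 28.6 and 24.6 CPM. Flank replicate 1 lay above all footpad tumors for Timp2 and above footpad replicate 1 for Timp3, so the groups overlapped for both. Timp4 was scarce, at 0, 0.467 and 0.225 CPM against 1.91, 0.359 and 0.415 CPM. Its log2 fold change of -1.91 ± 1.13 (SE), the lowest of all members, rested on flank replicate 1 and had an edgeR adjusted p of 0.332, and without flank replicate 1 it was -0.72.

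**Figure D3:**
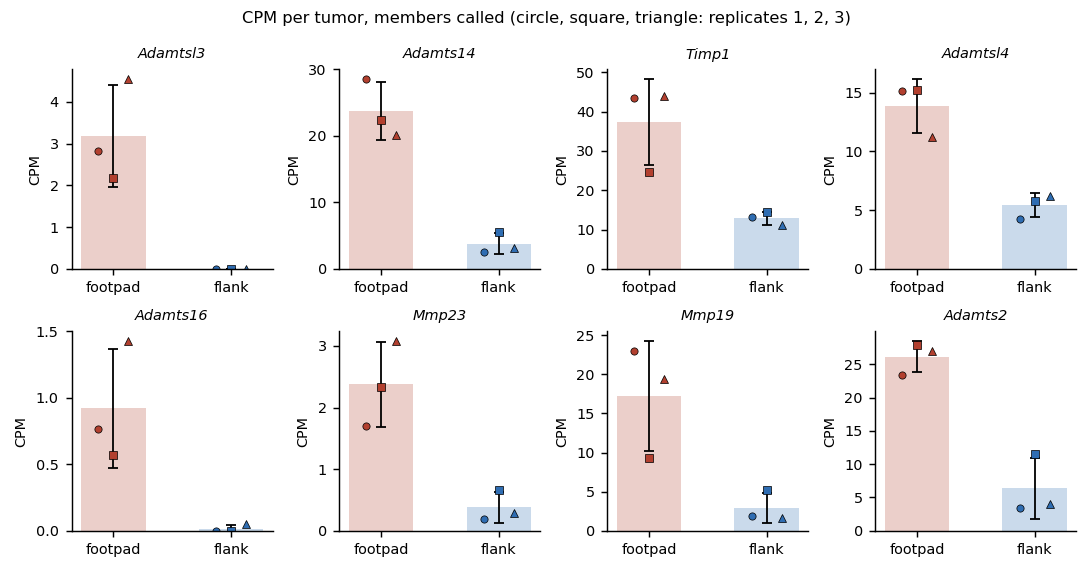
CPM in each tumor (vertical axes, linear, from 0) for the 8 members called, in order of adjusted p. Bars are means of 3 tumors, error bars are the SD, cut off at 0 where they reach below it, and symbols mark replicates 1 (circle), 2 (square) and 3 (triangle). In every panel all footpad symbols lie above all flank symbols, and Adamtsl3 and Adamts16 are at or near 0 in the flank.

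The collagenases, the stromelysins other than Mmp11, and Mmp9 showed a different picture, with large differences between tumors of the same site. Mmp3 (stromelysin-1) was at 38.9, 2.16 and 63.5 CPM in the footpad, compared with 0.638, 21.9 and 1.34 CPM in the flank. The order of the tumors therefore crossed: footpad replicate 2 resembled flank replicates 1 and 3, and flank replicate 2 lay nearer the 2 high footpad tumors. Its log2 fold change was 2.13 ± 1.44 (SE) with an edgeR adjusted p of 0.392, and it ran from 1.36 without footpad replicate 3 to 5.12 without flank replicate 2. Mmp13, the main collagenase of the mouse, was at 8.51, 0.263 and 16.3 CPM against 0.276, 6.74 and 1.04 CPM. Footpad replicate 2 was here the lowest of the 6 tumors and flank replicate 2 was close to footpad replicate 1. The log2 fold change of Mmp13 was 1.64 ± 1.38 (SE) with an edgeR adjusted p of 0.494, and it ran from 0.70 to 3.65 without the same tumors in turn. Mmp10 (stromelysin-2) was at 9.63, 0.554 and 10.5 CPM against 0.155, 0.838 and 0.240 CPM. It was 17.4 and 18.9 times as high in footpad replicates 1 and 3 as in replicate 2, which lay among the flank tumors, and its log2 fold change of 4.06 ± 1.11 (SE), the largest of the MMPs, had an edgeR adjusted p of 0.0759.

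Mmp9 and Mmp8, chosen for description after their values were seen, are carried in the granules of neutrophils. Mmp9 was at 31.0, 0.583 and 12.3 CPM in the footpad and 0.448, 2.02 and 0.543 CPM in the flank, so that footpad replicate 1 had 53.2 times the level of replicate 2. Its log2 fold change was 3.86 ± 1.25 (SE) with an edgeR adjusted p of 0.112. Mmp8 was at 8.01, 0.321 and 3.82 CPM against 0.379, 0.650 and 0 CPM (log2 fold change 3.55 ± 1.38 SE, edgeR adjusted p = 0.164). Mmp25, a membrane-type MMP known from leukocytes, was at 2.07, 0.190 and 0.633 CPM against 0.0690, 0.103 and 0.0799 CPM, and here footpad replicate 2 remained above the flank (log2 fold change 3.48 ± 0.91 SE, edgeR adjusted p = 0.0680). Without footpad replicate 2, the edgeR adjusted p was 0.0217 for Mmp10, 0.0277 for Mmp9 and 0.0311 for Mmp25, and these passed the test, whereas Mmp3 and Mmp13 passed in no fit that left out a tumor. With another tumor left out instead, the edgeR adjusted p rose to as much as 0.217 for Mmp10, 0.316 for Mmp9 and 0.208 for Mmp25.

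In all, 9 of the 42 members tested (21.4%) were in footpad replicate 2 at under 0.5 times their level in both other footpad tumors, namely Mmp3, Mmp8, Mmp9, Mmp10, Mmp13, Mmp19, Mmp25, Adamts7 and Adamtsl1, where 5.57% of all genes tested were. Footpad replicate 2 also stood apart in markers of host cells. The 9 neutrophil markers, 6 of which could be tested and 0 of which were called, summed to 334, 6.29 and 165 CPM in the footpad, compared with 19.4, 28.3 and 4.22 CPM in the flank, and Mpo had no read in any tumor. The 8 keratinocyte markers summed to 30.0, 595 and 10.5 CPM in the footpad and 4.78 to 12.5 CPM in the flank, and the 7 skeletal muscle markers to 123, 1004 and 38.3 CPM in the footpad and 11.0 to 190 CPM in the flank. Reads on the 5 erythroid markers, 4 of which encode globins, made up 3.47, 0.408 and 1.82% of each footpad library in turn and 2.87, 0.381 and 0.191% of each flank library. The neutrophil and erythroid values thus rank the 3 footpad tumors as Mmp8, Mmp9 and Mmp25 do, and the part of these markers in the members' values was not tested.

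**Figure D4:**
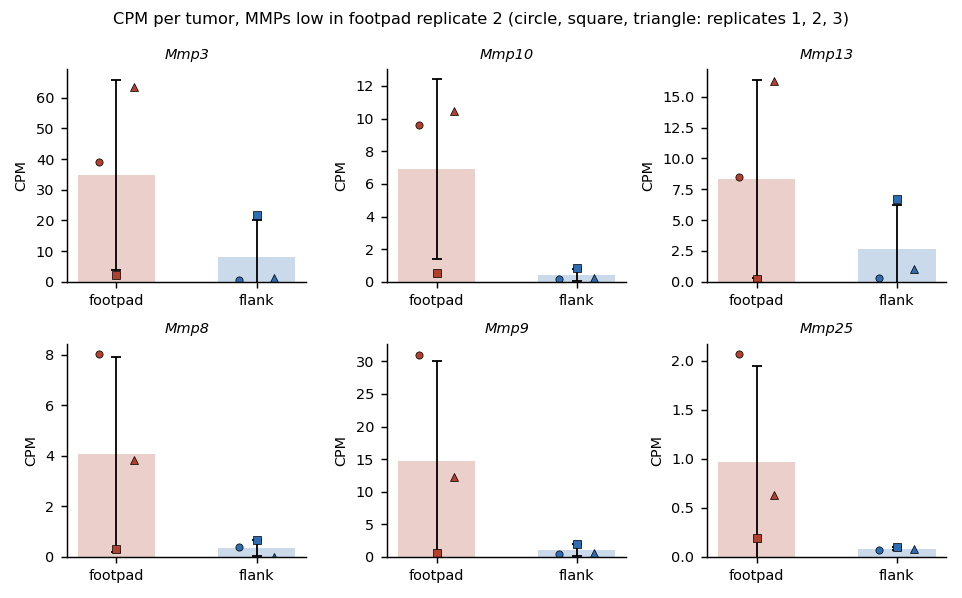
CPM in each tumor (vertical axes, linear, from 0) for 6 MMPs that were low in footpad replicate 2. Bars are means of 3 tumors, error bars are the SD, cut off at 0 where they reach below it, and symbols mark replicates 1 (circle), 2 (square) and 3 (triangle). The square of the footpad group lies near the flank tumors in every panel, and for Mmp3 and Mmp13 the square of the flank group lies well above the other flank tumors.

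Several members separated the sites without passing the test. Mmp2 (gelatinase A) was at 24.7, 15.6 and 39.8 CPM in the footpad and 6.24, 14.8 and 4.41 CPM in the flank. Flank replicate 2 nearly reached footpad replicate 2, and the log2 fold change of 1.65 ± 0.51 (SE) had an edgeR adjusted p of 0.0994. This p was 0.0476 without flank replicate 2 and 0.274 without footpad replicate 3. Of the COMP-cutting pair, Adamts7 was at 13.1, 2.70 and 9.37 CPM against 2.09, 2.45 and 2.16 CPM, with a log2 fold change of 1.91 ± 0.53 (SE) and an edgeR adjusted p of 0.0765. The edgeR adjusted p of Adamts7 was 0.0165 without footpad replicate 2 and 0.232 without footpad replicate 1. Its relative Adamts12 was at 29.4, 25.9 and 35.4 CPM against 16.2, 25.0 and 16.2 CPM, a smaller difference (log2 fold change 0.66 ± 0.22 SE, edgeR adjusted p = 0.116). The low-level Mmp16, a membrane-type MMP, was at 0.269, 0.452 and 0.184 CPM against 0, 0.103 and 0.0479 CPM, and its edgeR adjusted p was 0.150.

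Of the 7 proteoglycan-cutting ADAMTS genes, 0 were called in edgeR and Adamts8 alone in DESeq2, and the 2 that separated the sites, Adamts8 and Adamts15, were the scarcest. Adamts8 was at 0.876, 0.860 and 0.592 CPM against 0, 0.137 and 0 CPM (log2 fold change 4.04 ± 1.14 SE, edgeR adjusted p = 0.0816). Adamts15 was at 1.53, 1.69 and 1.59 CPM against 0.121, 1.01 and 0.128 CPM, tight in the footpad and with flank replicate 2 near it (log2 fold change 1.93 ± 0.81 SE, edgeR adjusted p = 0.191). Without flank replicate 2 both were called in edgeR, Adamts8 with an adjusted p of 0.0294 against a flank without reads and Adamts15 with a log2 fold change of 3.66 and an adjusted p of 0.0224. With another tumor left out instead, the edgeR adjusted p rose to as much as 0.208 for Adamts8 and 0.373 for Adamts15. The abundant members of the group overlapped. Adamts1 was at 402, 240 and 387 CPM against 331, 359 and 282 CPM, and Adamts4 (aggrecanase-1) at 63.3, 31.5 and 59.9 CPM against 27.4, 44.2 and 34.9 CPM. Adamts20, known from the belted mutant mouse with its white band of skin, was at 14.8, 17.6 and 17.8 CPM against 14.4, 25.2 and 23.6 CPM. The log2 fold changes were 0.08 ± 0.22 (SE) for Adamts1, 0.54 ± 0.29 (SE) for Adamts4 and -0.33 ± 0.23 (SE) for Adamts20, and that of Adamts1 turned to -0.05 without footpad replicate 1.

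Mmp14 was even across the 6 tumors. It was at 221, 222 and 243 CPM in the footpad and 231, 172 and 177 CPM in the flank, with a log2 fold change of 0.24 ± 0.16 (SE) and an edgeR adjusted p of 0.379. Its highest value within a site was 1.10 times the lowest in the footpad and 1.34 times in the flank. The member that lay lower in all footpad tumors, Mmp17, a membrane-type MMP held by a lipid anchor, was at 1.73, 1.18 and 1.57 CPM against 2.48, 2.93 and 1.90 CPM (log2 fold change -0.71 ± 0.32 SE, edgeR adjusted p = 0.218). Adamts13, the protease of von Willebrand factor, was at 0.718, 1.24 and 1.12 CPM against 2.69, 1.51 and 1.10 CPM, and its log2 fold change of -0.78 ± 0.44 (SE), the lowest among ADAMTS genes, had an edgeR adjusted p of 0.313. The other 8 tested members, Mmp11, Mmp12, Mmp15, Mmp27, Mmp28, Adamts5, Adamts9 and Adamtsl1, overlapped between the sites, with log2 fold changes from -0.25 to 0.96.

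Of the 9 members that were not tested, Mmp7 (matrilysin, an epithelial enzyme), Mmp20 (the protease of tooth enamel), Mmp21 and Adamts18 had no read in 6 libraries, which at the limit of 3 reads allows up to 0.0438 to 0.0673 CPM per tumor. The other 5 were Mmp1a, Mmp1b, Mmp24, Adamts17 and Adamts19. Mmp1b had 16 reads in the footpad group and 0 in the flank group, at least 2.19-fold higher with the flank set to 3 reads per library, and footpad replicate 3 supplied 14 of the 16.

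**Figure D5:**
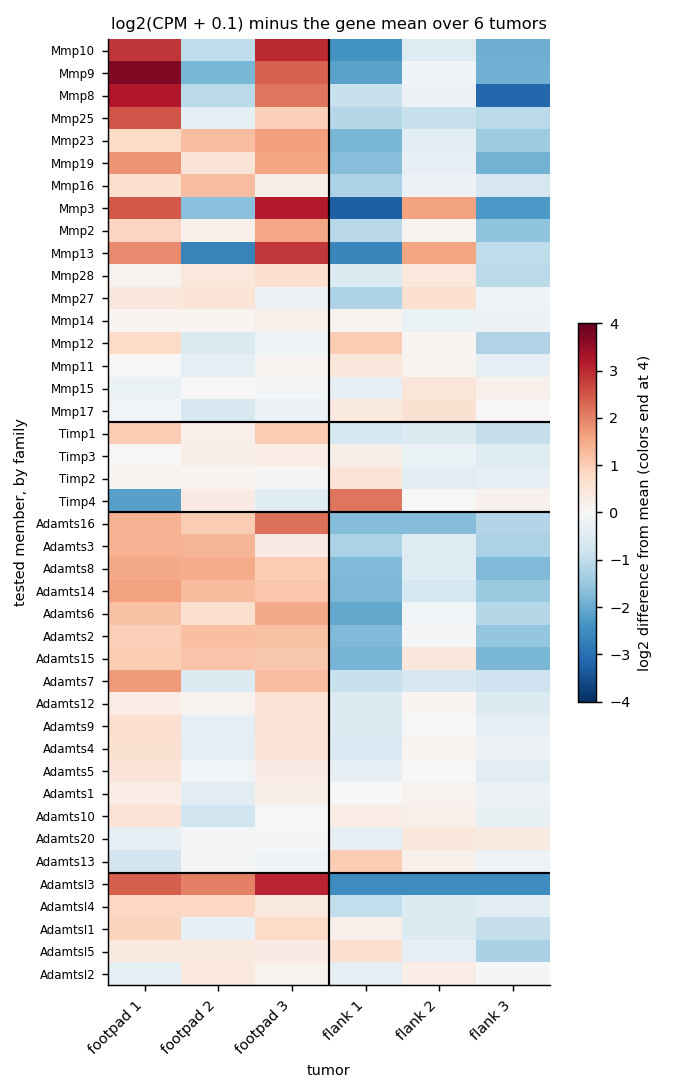
Heat map of log2(CPM + 0.1) minus the mean of each gene over the 6 tumors, with tested members as rows, ordered within each family by log2 fold change, and tumors as columns. Red is above and blue below the gene's mean, and colors end at a log2 difference of 4. Footpad replicate 2 is blue in the rows of Mmp3, Mmp8, Mmp9, Mmp10 and Mmp13 and red in those of Adamts2, Adamts14, Adamts16 and Adamtsl3.

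Markers of connective tissue moved with the site as well. The 10 fibroblast markers summed to 2742, 2774 and 3757 CPM in footpad tumors and 127, 434 and 137 CPM in flank tumors, and all 10 had reads. Of the 10, 7 were called higher, where 2.89% of all genes were. Without overlap, 9 lay above the flank, where 17.5% of all genes did, and Pdpn overlapped. Most of the sum in each tumor came from Col1a1, Col1a2 and Col3a1, and the study describes high expression of collagen genes by melanoma cells. The collagen genes Col1a1 and Col3a1, 2 of these markers, were at 543 to 686 CPM and 1279 to 2069 CPM in the footpad and at 15.0 to 74.3 CPM and 35.8 to 201 CPM in the flank. Flank replicate 2 was the highest flank tumor in the fibroblast sum. It was so too in the macrophage, endothelial, neutrophil, skeletal muscle, tendon and adipocyte sums, and not in the melanocyte, keratinocyte, cartilage and erythroid sums. The same tumor was the highest of the flank for 29 of the 41 tested members with a flank read (70.7%), where it was so for 30.7% of all genes. Of the 8 members called, these were Adamts2, Adamts14, Mmp19, Mmp23 and Timp1, whereas Adamtsl4 and Adamts16 were highest in flank replicate 3 and Adamtsl3 had no flank read. The 5 tendon markers summed to 110, 38.7 and 192 CPM against 0.0345, 8.72 and 0.495 CPM. Most of this sum was Thbs4 at 108, 36.9 and 186 CPM against 0, 8.45 and 0.272 CPM, while Scx, Tnmd and Mkx were too low to test. The 7 cartilage markers went the other way in sum, at 18.2, 17.0 and 20.0 CPM against 86.9, 59.0 and 77.6 CPM. Col2a1 and Col9a1 were called lower (log2 fold changes of -2.71 and -3.43, edgeR adjusted p = 0.00677 for each) and Comp higher. Most of the flank sum was Col2a1 and Col9a1, while Acan, Matn1 and Chad were too low to test, so more cartilage in the flank is not shown. The 6 adipocyte markers summed to 24.2 to 31.7 CPM in the footpad and 33.4 to 47.2 CPM in the flank, and 0 were called. Macrophage markers were at 244 to 282 CPM against 33.2 to 170 CPM, with 1 of 8 called, and endothelial markers at 308 to 340 CPM against 166 to 209 CPM, with 3 of 8 called. Where RNA of melanoma and host cells is sequenced together, a change in the number of cells of a type and a change in RNA per cell cannot be told apart, and the part of these markers in the members' values was not tested.

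Of the 51 members, 10 MMPs lie within 427.1 kb of chromosome 9 (chr9:7272514-7699585, GRCm38): Mmp13, Mmp12, Mmp1b, Mmp3, Mmp1a, Mmp10, Mmp8, Mmp27, Mmp20 and Mmp7. Of these, 6 could be tested and 0 were called in edgeR, while DESeq2 called Mmp10. The cluster held 4 of the 9 members that were low in footpad replicate 2. Its promoters also had a lower GC content than those of the other members, without overlap. In the RefSeq windows of GRCm38.p6, which span 250 bases before to 50 after a gene's start, 36 members had 39 promoters. The median GC content was 41.7% for the 10 cluster genes (range 37.7% to 52.0%), 66.0% for the other 26 members (range 53.3% to 80.0%) and 52.7% for all 32851 promoters.

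The windows were searched on both strands for TGANTCA, taken as the letters of an AP-1 site with any base at N. They were also searched for GGAATG, the letters bound by TEAD factors, the DNA-binding partners of YAP. AP-1 letters were found in 8 of the 39 member promoters (20.5%) and in 7.81% of all promoters. All 8 were promoters of cluster genes (Mmp1a, Mmp1b, Mmp3, Mmp7, Mmp10, Mmp12, Mmp13 and Mmp20), and 0 of the 26 other members had a match. The match of Mmp20 was TGAATCA, and the others had C or G at N. Among genes called there were 0 matches in 7 promoters of 6 genes. The TEAD letters were found in 2 member promoters (5.13%), those of Timp1 and Adamts13, and in 14.7% of all promoters. These are matches of letters, and binding was not measured.

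The stretch of 250 bases before the start is shown for the 3 cluster MMPs that had AP-1 letters and were low in footpad replicate 2. Their AP-1 letters (in capitals) begin 46, 63 and 35 bases before the start of Mmp3, Mmp10 and Mmp13. Mmp8, also of the cluster and low in footpad replicate 2, had no AP-1 letters. Mmp12 had them but was not at under 0.5 times its level in both other footpad tumors, so letters and pattern did not always go together. Timp1 is shown as the called gene with TEAD letters, in capitals and beginning 247 bases before the start, and Adamts14 as the called protease with the lowest adjusted p, with a window that has neither motif. Sequences are from RefSeq (GRCm38.p6), written 5′ to 3′ on the strand of the gene.
Mmp3, chr9:7445572-7445821, plus strand: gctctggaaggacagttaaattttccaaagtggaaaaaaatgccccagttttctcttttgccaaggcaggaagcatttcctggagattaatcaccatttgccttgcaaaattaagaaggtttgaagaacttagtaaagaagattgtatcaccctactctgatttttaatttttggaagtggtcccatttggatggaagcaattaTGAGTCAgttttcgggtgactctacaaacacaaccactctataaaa
Mmp10, chr9:7502092-7502341, plus strand: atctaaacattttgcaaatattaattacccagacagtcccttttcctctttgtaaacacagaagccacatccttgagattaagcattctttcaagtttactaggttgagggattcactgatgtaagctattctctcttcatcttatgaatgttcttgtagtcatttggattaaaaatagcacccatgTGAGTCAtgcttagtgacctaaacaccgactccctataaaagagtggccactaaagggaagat
Mmp13, chr9:7272264-7272513, plus strand: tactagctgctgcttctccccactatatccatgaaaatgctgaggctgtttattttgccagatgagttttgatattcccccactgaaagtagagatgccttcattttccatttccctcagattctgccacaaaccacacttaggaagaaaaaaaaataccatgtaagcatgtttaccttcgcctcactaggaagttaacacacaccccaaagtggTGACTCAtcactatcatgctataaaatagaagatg
Timp1, chrX:20869916-20870165, plus strand: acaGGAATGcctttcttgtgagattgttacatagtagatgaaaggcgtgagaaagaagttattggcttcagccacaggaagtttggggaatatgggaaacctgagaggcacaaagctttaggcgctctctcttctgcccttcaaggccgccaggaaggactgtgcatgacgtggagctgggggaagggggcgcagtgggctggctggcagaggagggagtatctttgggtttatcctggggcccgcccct
Adamts14, chr10:61273420-61273669, minus strand: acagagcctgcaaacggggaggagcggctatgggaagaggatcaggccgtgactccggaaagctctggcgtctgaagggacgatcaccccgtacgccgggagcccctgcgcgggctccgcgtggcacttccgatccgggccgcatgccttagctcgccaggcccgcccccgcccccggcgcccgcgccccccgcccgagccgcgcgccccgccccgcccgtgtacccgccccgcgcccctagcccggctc

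The Adamts14 stretch had a GC content of 76.4%, against 37.2% to 40.4% in the 3 MMP stretches and 54.4% for Timp1.

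A further 57 genes of pericellular proteolysis and of ADAMTS substrates were listed by general knowledge, with earlier results of these data known, and 49 could be tested. Of the 49, 10 were called higher and 1 lower, where 2.89% and 0.872% of all genes were. Without overlap, 24 lay above and 4 below, where 17.5% and 14.9% of all genes did. The median log2 fold change of the 49 was 0.88. In the plasminogen system, whose product plasmin activates several pro-MMPs, genes that rose included the urokinase receptor Plaur (log2 fold change 1.94, edgeR adjusted p = 0.0458) and the protease inhibitor Serpine2 (log2 fold change 2.65, edgeR adjusted p = 0.0271). The protease gene Plau overlapped at 31.1 to 37.6 CPM against 17.6 to 34.1 CPM.

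Enzymes that process procollagen or activate pro-MMPs also included called genes. Bmp1, the procollagen C-proteinase, was at 56.3, 64.7 and 71.5 CPM against 28.8, 32.7 and 24.9 CPM, so that all footpad tumors were above the flank (log2 fold change 1.16 ± 0.16 SE, edgeR adjusted p = 0.0154), and its enhancer Pcolce, the most abundant gene of its group per length, overlapped at 93.3 to 119 CPM against 96.7 to 111 CPM. Pcsk6, a proprotein convertase, had a log2 fold change of 1.60 ± 0.26 (SE) with an edgeR adjusted p of 0.0234. Among surface and secreted proteases, Adam15 (1.26 ± 0.12 SE, edgeR adjusted p = 0.00677), Fap (2.83 ± 0.57 SE, adjusted p = 0.0381) and Htra3 (1.97 ± 0.41 SE, adjusted p = 0.0403) were higher, where each first value is the log2 fold change and Fap is itself on the fibroblast list.

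Of the substrates of ADAMTS proteases, the versican gene Vcan was at 95.7, 60.6 and 92.5 CPM in the footpad and 1.28, 10.3 and 1.39 CPM in the flank, a log2 fold change of 4.26 ± 0.84 (SE) with an edgeR adjusted p of 0.0365. Comp was at 0.606, 1.28 and 5.90 CPM in the footpad and had no read in the flank (edgeR adjusted p = 0.0375). Bcan, the brevican gene, was the 1 listed gene called lower, at 0.741, 1.02 and 0.510 CPM against 2.69, 2.39 and 3.63 CPM (log2 fold change -1.93 ± 0.38 SE, edgeR adjusted p = 0.0365). Papln, an ADAMTS-related gene of the list, was not called but lay below without overlap, at 12.1, 8.87 and 12.5 CPM against 110, 33.5 and 14.8 CPM (log2 fold change -2.25 ± 0.66 SE, edgeR adjusted p = 0.0879). Of the groups without a call, the cathepsins were led by Ctsd at 934 to 1200 CPM against 701 to 820 CPM, which did not overlap but stayed under a fold of 2, and the inhibitors, inducers and receptors by Bsg at 597 to 631 CPM against 548 to 1472 CPM, which overlapped. Furin, the most abundant proprotein convertase, separated the sites at 45.7 to 93.1 CPM against 23.3 to 31.9 CPM and was not called, while Adam9, Htra2 and Vwf, the most abundant of their groups, overlapped.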

How the data were processed

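Total RNA of 3 footpad and 3 flank B16F10 tumors was sequenced from stranded libraries. Following the labels and the study's methods, the authors checked reads with FastQC 0.11.7, trimmed them with Trimmomatic, aligned them to mm10 with HISAT2 2.1.0 and deposited the read count of each gene, not normalized, together with FPKM values, in which the authors divided by length and library size. The program used for counting and its use of strand are not given in the sources used here, so reads in exons shared by opposite genes cannot be assigned, and Mmp1a and Mmp1b, which are near copies, are uncertain. Groups and replicate numbers were taken from the sample titles.

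Sites were compared on the counts by edgeR 4.0.16 in R 4.3.3 (TMM scaling, filterByExpr at its defaults, glmQLFit and glmQLFTest, Benjamini-Hochberg adjustment over 17210 genes). A call needed a fold of 2 or more and an adjusted p under 0.05. Standard errors were approximated as the size of the log2 fold change over the square root of F. A group without reads was set to 3 reads per library for lower bounds. Alternatives were DESeq2 1.42.0, limma 3.58.1 on log2(FPKM + 1) and log2(FPKM + 0.1), other normalizations, filters and thresholds, the replicate number as a block, and leaving out each tumor. The fits were tested on simulated data. Python 3.11.15 and matplotlib 3.10.9 served for tables and plots.

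All 51 members were matched to RefSeq by identifier, and 36 had a promoter in the table used. The members and gene lists were chosen with earlier results of these data known. Named are members called, the most abundant of each role group and the 3 most abundant of each family, the largest and smallest log2 fold change of each family, and members of fold 2 or more that did not overlap. Mmp8 and Mmp9 are exceptions. Protein sequences were not used here. The values of 1 listed pathway gene are not reported here. Tumors of a site differed by more than counting noise (chi-square of 62.3 to 578 per gene), and intervals and limits cover counting error only.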

Additional observations from a re-analysis of the deposited data

How the results depend on the processing

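The direction of the 8 members called was the same in the alternatives, and their calls depended on the test and on single tumors. The number of members called, all of them higher, was 8 as reported, 17 with DESeq2, 0 with limma on log2(FPKM + 1), 0 with limma and a pseudocount of 0.1, and 15 at an adjusted p under 0.1. Upper-quartile normalization, DESeq2 size factors, no filter and a filter of 10 reads in at least 3 tumors each called the same 8, and a filter of 10 reads in every tumor called 7, of which 6 were among the 8. Leaving out 1 tumor gave 0 to 10 members. The listed pathway genes called, 11 as reported, were 20 with DESeq2, 1 with limma on either scale, 19 at an adjusted p under 0.1 and 0 to 12 without 1 tumor. All genes called, 647 as reported, were 1560 with DESeq2, 51 and 62 with limma at pseudocounts of 1 and 0.1, 1327 at an adjusted p under 0.1 and 0 to 836 without 1 tumor. Members without overlap, 18 as reported, were 11 under the filter of 10 reads in every tumor, which tested 30 members, and 19 to 29 without 1 tumor. A group with fewer tumors separates more easily for any gene. The share of all genes without overlap is not given for these settings, so these counts are not a result about the members. The causes were not tested, beyond the smaller groups or fewer genes that these settings make.

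Footpad and flank tumors share replicate numbers. The labels do not say that a number marks a mouse, so the numbers were not taken to pair them. The deviations of same-numbered tumors had correlations of 0.054, -0.097 and -0.115, and 0 of 6 tumors was closest to its own number. Such correlations cannot show whether same-numbered tumors shared a mouse. With the replicate number as a block edgeR called 0 members, 0 pathway genes and 0 of all genes, and 16 members differed by a fold of 2 or more at an unadjusted p under 0.05, against 19 without the block. With limma this count was 5 at a pseudocount of 1 and 15 at 0.1. The share of all genes by this unadjusted rule is not given for the block or for limma.

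Among fits without 1 tumor the log2 fold change changed sign for Adamts1 (-0.0501 to 0.28), Adamts10 (-0.43 to 0.24), Adamtsl2 (-0.0779 to 0.33) and Timp2 (-0.10 to 0.44), none of which was called. Adamtsl3 was called in 4 of 6 such fits, Adamts14 in 3, Mmp19 and Timp1 in 2 and Adamts2, Adamts16, Adamtsl4 and Mmp23 in 1. With 3 tumors per site and differences of several-fold between tumors of 1 site, a member at an adjusted p above 0.05 is not shown to be equal at both sites, and genes under 3 reads were not detectable at this depth.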
